A study of Gallus gallus with 14 samples.

Results

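Potassium channel genes were followed in retinas of chickens that wore a lens of -10 dioptres for 1 day. The table of gene expression held 84 symbols that begin with KCN, the prefix of potassium channel subunits, and the 59 of them whose mean over the 14 libraries reached 1 CPM are described here, by the letter after KCN and by role. They stood among 11005 genes of 18631 that reached the same mean. CPM is the read count of a gene scaled to a total of 1000000 reads. It is not divided by gene length, so levels are compared between libraries and not between genes.

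Potassium channels let potassium ions leave or enter a cell and thereby set its resting voltage, the shape of its electrical response and the time it takes to recover. Pore subunits gather in groups around the ion path, modifier subunits of the KCNF, KCNG, KCNS and KCNV families form no working channel alone and join KCNB subunits, and auxiliary subunits alter gating and transport to the membrane. In the retina, channels that hold KCNV2 carry an outward current of the inner segments of rods and cones, KCNMA1 shapes the output of several neuron types, and inward rectifiers carry potassium through Müller glia. In people, loss of KCNV2 causes a cone dystrophy with an enlarged rod response in the electroretinogram.

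All birds were White Leghorn chickens of wild type genotype, aged 3 days when lenses were fitted. The first group holds 7 retinas from eyes behind a -10 dioptre lens mounted on a Velcro ring, which shifts the focal plane to behind the retina, a stimulus for eye elongation in chicks. The second group holds 7 retinas labelled control, and nothing in the labels tells how their eyes were handled or whether each retina is from a bird of its own. The p-values thus reflect only the spread among these samples, some of which may be technical. By title number, lens libraries form a set 1 to 4 and a set 12 to 14, and controls are 10, 17 to 19 and 21 to 23. The labels do not say what the 2 lens sets stand for, and each was also compared with control separately. Earlier results of these data had shown that the 2 lens sets differ, and the split was made with those results known. The p-values that rest on the split thus do not come from a choice blind to the values.

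Depth, as the step of 1 read in the CPM values gave it, was 34.1 to 43.5 M reads for lens 1 to 4, 40.4 to 49.3 M for lens 12 to 14 and 27.7 to 40.3 M for control (M, 1000000). Genes of the W chromosome, which hens carry and cocks lack, summed to 604 to 655 CPM in 7 libraries and to 1.54 to 3.11 CPM in the other 7. Libraries with W-linked reads were 3 of 4 in lens 1 to 4, 1 of 3 in lens 12 to 14 and 3 of 7 in control. Retinal markers were present in each set: summed rod markers ran from 471 to 612 CPM in lens 1 to 4, from 517 to 532 in lens 12 to 14 and from 504 to 664 in control, and summed cone markers from 1597 to 1940, from 1411 to 1705 and from 1493 to 1823 in the same order. Markers of pigment epithelium, a tissue that can come along with the retina, summed to 20.7 to 29.3, 19.2 to 22.3 and 20.9 to 27.5 CPM. MITF, with a mean of 17.3 CPM, made up most of that sum, and RPE65 ran from 1.23 to 7.04 CPM over the libraries. Markers of microglia summed to 3.73 to 5.80, 3.77 to 5.72 and 2.57 to 5.93 CPM. Of 5 red blood cell symbols, 0 were listed. In bulk retina, fewer cells of a type and less RNA per cell cannot be told apart.

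Of the pore subunits opened by voltage, 21 of 26 listed symbols reached 1 CPM, among them 6 of 7 KCNA, 2 of 3 KCNC, 2 of 2 KCND and 6 of 7 KCNH. All 10 modifiers did so, namely 1 KCNF, 4 KCNG, 3 KCNS and 2 KCNV genes. The inward rectifiers KCNJ were represented by 8 of 14, and the KCNK leak channels, whose subunits hold a pair of pore domains, by 8 of 13. Of channels opened by calcium or sodium 4 of 7 passed (KCNMA1, KCNN2, KCNT1 and KCNT2), and of auxiliary subunits 8 of 13 (KCNAB1, KCNAB2, KCNE2, KCNIP1, KCNIP2, KCNIP4, KCNMB2 and KCNMB4). Means of the 59 genes ran from 1.19 to 285 CPM with a median of 9.05. The gene just inside the limit was the modifier KCNF1, with a mean of 1.19 CPM, and the one just outside was the leak channel KCNK15, with a mean of 0.952 CPM. Among the 25 symbols under the limit was KCNJ13, an inward rectifier of the pigment epithelium, with a mean of 0.047 CPM.

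Over all 7 lens against all 7 control libraries, 0 of the 59 genes passed limma at an adjusted p under 0.05, and 0% of all genes tested passed. At an unadjusted p under 0.05 there were 9 of 59, 4 higher and 5 lower in lens, against 14.7% of all genes. An exact rank-sum test called 0 as well, with 5 at an unadjusted p under 0.05. None of the 59 separated the groups completely, as 0.145% of all genes did upward and 0.145% downward. The median log2 fold change was -0.04 for the 59 genes and 0.02 for all genes, on the log2(CPM + 1) scale used for each fold change here, which understates the change of low genes. The gene of smallest p was KCNH1, with an adjusted p of 0.161 and all 7 lens libraries under the control median. Also among the 5 of smallest p were KCNH8 (log2 fold change -0.37, adjusted p = 0.205, below in 7 of 7), KCNV2 (-0.36, adjusted p = 0.226, below in 5 of 7) and KCNB2 (-0.13, adjusted p = 0.237, below in 7 of 7).

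In lens libraries 1 to 4 against control, 9 of the 59 genes (15.3%) passed limma, against 13.4% of all genes tested. The genes called higher (9.4% of all genes) included KCNH5, KCNC1 and KCNK3, and KCNV2, KCNH1, KCNH8, KCNA4 and KCNG3 were lower (4.05% of all genes), while 50 did not pass. The unadjusted share was 16 of 59, or 27.1%, against 30.2% of all genes. The 4 lens libraries lay wholly above the 7 controls for KCNH5 and KCNC1, among others, and wholly below them for KCNV2, KCNH1 and KCNH8, where 7.05% and 2.73% of all genes did so in each direction. The median log2 fold change was -0.01 over the 59 genes and 0.04 over all genes. Of 56 tested markers of retinal and neighbouring cell types, 6 were called in the same libraries. VSX1 (bipolar cells, 0.49), RBPMS2 and SLC17A6 (ganglion cells, 0.47 and 0.26) and GNB1 (in the rod list, 0.29) were higher. GRIK1 (bipolar cells, -0.19) and IMPG2 (photoreceptors, -0.16) were lower. The list medians were 0.05 for bipolar, 0.09 for ganglion, -0.12 for rod and 0.10 for photoreceptor markers. GNB1, GRIK1 and IMPG2 thus went against the median of their own list. The part of these markers in the potassium channel results was not tested.

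KCNV2 encodes a modifier subunit that alters the voltage range of KCNB channels in photoreceptors. It lies on sex chromosome Z of GRCg6a, 26605922 to 26611455 on the plus strand. It had 10.8, 12.1, 10.9 and 12.9 CPM in lens libraries 1 to 4, 18.5, 15.4 and 18.2 CPM in lens 12 to 14, and 14.7 to 22.5 CPM with a median of 18.1 in the 7 controls. Lens libraries 1 to 4 were the 4 lowest of the 14, and lens libraries 12 to 14 lay inside the control range. KCNV2 fell by 0.59 on the log2 scale in lens 1 to 4 (SE 0.10, limma, adjusted p = 0.00364), with 11.7 ± 1.03 CPM there (SD, n = 4) against 18.1 ± 2.64 in control (n = 7). In lens 12 to 14 it averaged 17.4 ± 1.70 CPM (n = 3), a log2 fold change of -0.05 (adjusted p = 0.995). Both comparisons use the same 7 controls, and the direct test of lens 1 to 4 against lens 12 to 14 gave -0.53 (SE 0.097, limma, adjusted p = 0.0210). That direct call was lost without lens 1 (adjusted p = 0.0543), lens 3 (0.0615), lens 12 (0.0694) or lens 14 (0.09998). The 552 tested genes of chromosome Z had a median log2 difference of -0.19 between the lens sets. In lens 1 to 4 against control their median was -0.13.

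KCNV2 also differed with the sex chromosomes of the bird. Libraries with W-linked reads had 13.8 ± 2.47 CPM and libraries without them 18.5 ± 2.87 (SD, n = 7 each), a log2 difference of -0.36 with lens as a covariate (SE 0.089, limma, adjusted p = 0.0247). It was the 1 gene of 59 (1.69%) called there, against 4.69% of all genes (1.34% higher and 3.34% lower). Chromosome Z, where only KCNV2 and KCNN2 of the 59 lie, held 364 of the genes called lower and 14 of those called higher. Of the 10426 genes off Z and W, 107 were called higher and 4 lower. At an unadjusted p under 0.05 the counts were 7 of 59 and 14.6% of all genes, and none of the 59 separated the groups completely, against 0.636% of all genes upward and 2.64% downward. The KCNV2 call was lost without lens 1, 3, 12 or 14 or control 17 or 23, with adjusted p-values of 0.0548 to 0.0792. Over 26 alternative settings, among them a fit with the library sets as covariate, the KCNV2 difference ranged from -0.42 to -0.27, and 18 passed. The lens covariate of the main fit does not separate the lens sets. Lens 1 to 4, where KCNV2 was lowest, held 3 libraries with W-linked reads and 1 without, and lens 12 to 14 held 1 with and 2 without.

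Within control, the 3 libraries with W-linked reads had 15.8 ± 0.998 CPM of KCNV2 and the 4 without had 19.9 ± 1.88. The 3 libraries of lens 1 to 4 with W-linked reads had 11.3 ± 0.721 CPM, and the 1 without, lens 4, had 12.9 CPM. Each lay below every control library of its own kind. With W-linked reads as a covariate, KCNV2 in lens 1 to 4 against control had a log2 fold change of -0.50 (limma, adjusted p = 0.00171). In the 3 lens and 3 control libraries that hold W-linked reads it was -0.45 (adjusted p = 0.0107), a comparison chosen after the data were seen.

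KCNV1, the other member of the KCNV family, had 2.99 ± 0.406 CPM in lens 1 to 4 and 2.89 ± 0.456 in control, a log2 fold change of 0.04 (limma, adjusted p = 0.831). Photoreceptor markers common to rods and cones summed to 815 to 848 CPM in lens 1 to 4, 774 to 885 in lens 12 to 14 and 824 to 926 in control. Called members in lens 1 to 4 were 1 of these 5 (IMPG2, lower) and 1 of 6 in the rod list (GNB1, higher). Of 8 tested cone markers, 0 were called. Of all genes, 13.4% were called there. The median log2 fold changes of the 3 lists were 0.10, -0.12 and 0.11 in that order.

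KCNH1 encodes a voltage-gated channel of the ether-a-go-go group, which opens slowly on depolarization. It lies on chromosome 3, 22428252 to 22619732 on the plus strand, and a gene on the opposite strand, HHAT, with a mean of 1.10 CPM, overlaps it. KCNH1 had 43.7, 51.5, 57.2 and 64.6 CPM in lens libraries 1 to 4, 71.1, 63.6 and 73.2 CPM in lens 12 to 14, and 69.8 to 90.9 CPM with a median of 78.5 in control. The first set lay below all 7 controls, and 1 of the other 3 lens libraries, lens 13, also did. In lens 1 to 4 KCNH1 fell by 0.53 on the log2 scale (SE 0.092, limma, adjusted p = 0.00396), with 54.2 ± 8.81 CPM (SD, n = 4) against 78.3 ± 7.02 in control (n = 7). The spread inside lens 1 to 4 was the wider one, with a coefficient of variation of 16.2% against 8.97% in control.

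In lens libraries 12 to 14, KCNH1 averaged 69.3 ± 5.01 CPM, a log2 fold change of -0.17 (limma, adjusted p = 0.942). All 3 libraries lay below the control median. The direct test between the lens sets gave -0.36 (SE 0.12, adjusted p = 0.102) and did not pass. Without lens 4, the highest of its set, that difference was -0.45 (adjusted p = 0.0323). This was the 1 passing fit of the 7 that each left out 1 library, with adjusted p-values of up to 0.271. Of 13 other settings with all libraries kept, 1 also passed (limma, adjusted p = 0.0242). In libraries with W-linked reads alone, KCNH1 was 50.8 ± 6.74 CPM in lens 1 to 4 and 79.5 ± 1.502 in control (n = 3 each). The log2 fold change there was -0.64 (limma, adjusted p = 0.00217), a comparison chosen after the data were seen.

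KCNH5 encodes the closest relative of KCNH1 in the ether-a-go-go group and lies on chromosome 5, 53682269 to 53842522 on the plus strand. The gene ERNI on the opposite strand overlaps it, with a mean of 0.050 CPM. KCNH5 had 106, 110, 109 and 108 CPM in lens libraries 1 to 4, 83.0, 79.2 and 77.3 CPM in lens 12 to 14, and 76.7 to 87.9 CPM with a median of 80.1 in control. Lens libraries 1 to 4 were the 4 highest of the 14 and spread over less than 5 CPM, while the other 3 lens libraries lay within the control range. KCNH5 rose by 0.40 on the log2 scale in lens 1 to 4 (SE 0.047, limma, adjusted p = 0.000576), with 108 ± 1.98 CPM (SD, n = 4) against 81.9 ± 4.05 in control (n = 7), or 1.32-fold.

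KCNH5 was the gene of smallest p among the 59 in this comparison and also between the lens sets. In lens 12 to 14 it averaged 79.8 ± 2.87 CPM, a log2 fold change of -0.03 against control (limma, adjusted p = 0.990). The direct test of lens 1 to 4 against lens 12 to 14 gave 0.44 (SE 0.052, adjusted p = 0.00777), which was lost without lens 14 (0.41, adjusted p = 0.0557). Over all 7 lens libraries it averaged 96.2 ± 15.4 CPM, so the lens spread was wider than the control spread and the fold change of 0.21 did not pass (adjusted p = 0.270). With W-linked reads as a covariate the fold change in lens 1 to 4 was 0.39 (adjusted p = 0.00089). KCNH1 and KCNH5 thus went in opposite directions in the same 4 libraries.

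**Figure D1:**
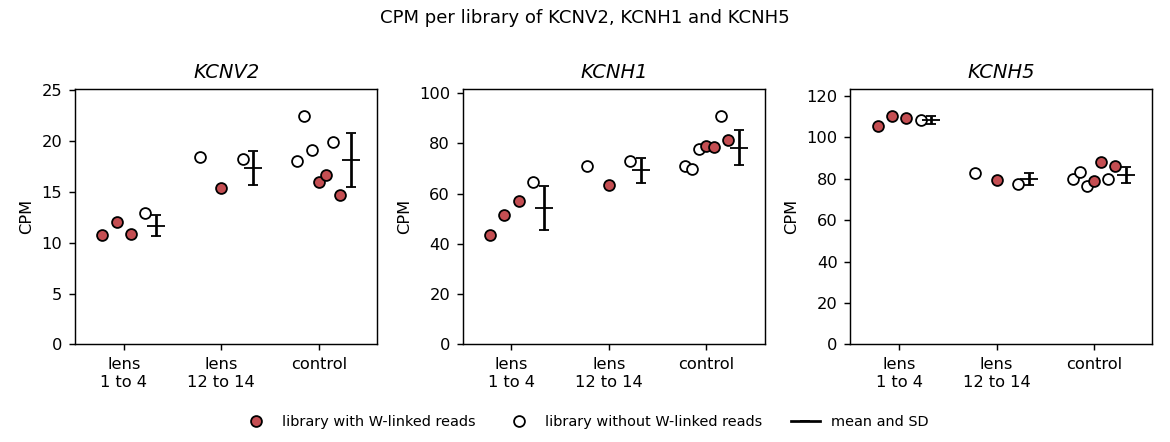
CPM of KCNV2, KCNH1 and KCNH5 in each library (y axis, CPM, from 0) for lens libraries 1 to 4, lens libraries 12 to 14 and control (x axis); filled points hold W-linked reads, open points do not, and bars give mean and SD. Lens libraries 1 to 4 sit at 10.8 to 12.9 CPM for KCNV2, at 43.7 to 64.6 for KCNH1 and at 106 to 110 for KCNH5, outside the range of the 7 controls in each panel.

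KCNH8, of the ELK group of the KCNH family, also passed both against control and between the lens sets. It had 13.5, 15.3, 15.2 and 17.6 CPM in lens 1 to 4, 22.2, 22.1 and 18.9 CPM in lens 12 to 14, and 18.4 to 28.4 CPM with a median of 22.3 in control. It was lower in the first set than in any other library, by 0.56 on the log2 scale against control (SE 0.11, limma, adjusted p = 0.00562). KCNQ3, a subunit of the M-current that restrains firing, had 20.96 ± 2.47 CPM in lens 1 to 4 and 19.3 ± 0.959 in control, which did not pass (log2 fold change 0.11, limma, adjusted p = 0.339).

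The calls of KCNC1, KCNA4, KCNK3 and KCNG3 in lens 1 to 4 were each lost when some single library was left out. KCNC1, a fast channel of neurons that fire at high rates, had 57.8, 61.3, 60.4 and 59.02 CPM in lens 1 to 4 and 49.2 to 55.1 CPM in control, with no overlap (log2 fold change 0.19, limma, adjusted p = 0.0211). Its call was lost without lens 2 (adjusted p = 0.0640) or lens 3 (0.0658), and under median-of-ratios (0.15, adjusted p = 0.0649) or trimmed-mean scaling (0.14, adjusted p = 0.0727). KCNA4, an inactivating channel, had 19.7, 20.6, 16.4 and 16.0 CPM in lens 1 to 4 and 19.9 to 23.5 CPM in control, so the groups overlapped by 1 lens library (-0.28, adjusted p = 0.0283). Its call was lost without lens 3 (adjusted p = 0.0996), lens 4 (0.0697) or control 22 (0.0510).

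KCNK3, a leak channel closed by acid, had 10.4, 10.6, 7.62 and 10.6 CPM in lens 1 to 4 and 5.95 to 8.36 CPM in control (log2 fold change 0.43, limma, adjusted p = 0.0180). Lens 3 lay inside the control range, and the call was lost without lens 1 (adjusted p = 0.0551) or lens 2 (0.0566). KCNG3, a modifier of KCNB channels, had 12.2, 12.4, 13.4 and 10.3 CPM in lens 1 to 4 and 12.2 to 20.4 CPM in control (-0.34, adjusted p = 0.0452). Its groups overlapped, and the call was lost in 10 of the 11 fits that left out 1 library, the fit without control 10 being the exception, with adjusted p-values of up to 0.111.

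**Figure D2:**
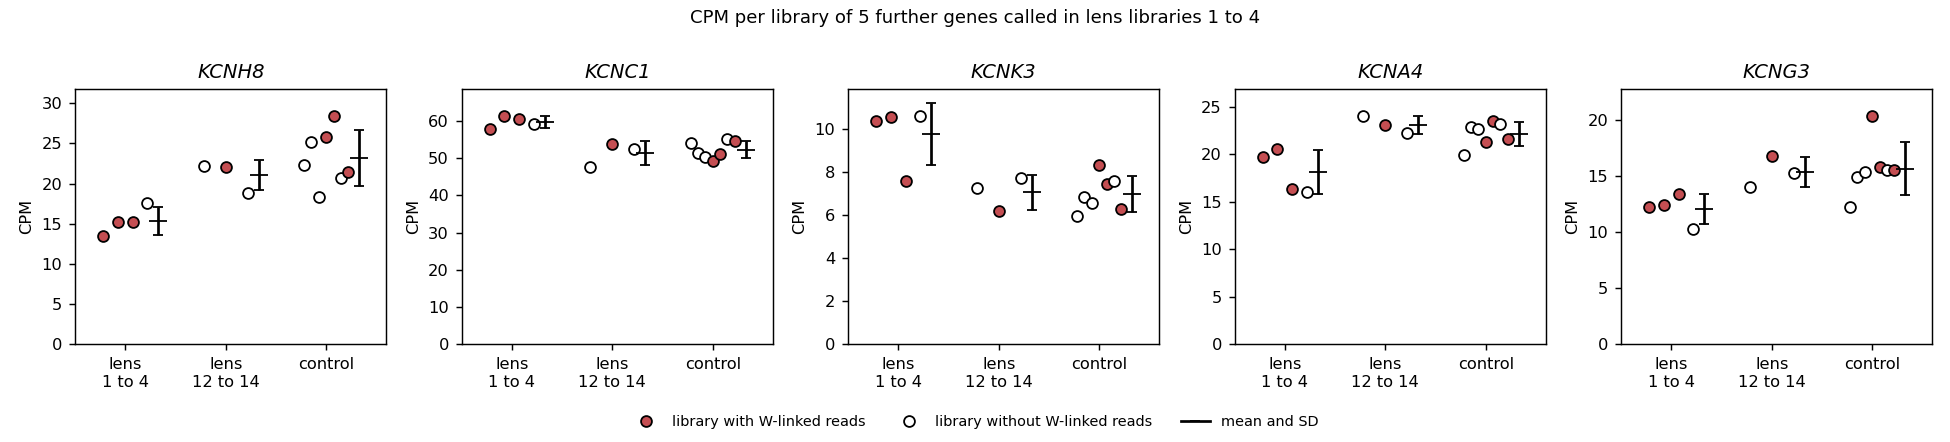
CPM per library (y axis, CPM, from 0) of 5 further genes called in lens libraries 1 to 4 against control, by library set (x axis); filled points hold W-linked reads, open points do not, and bars give mean and SD. KCNH8 and KCNC1 show no overlap between lens 1 to 4 and control, whereas the points of KCNK3, KCNA4 and KCNG3 overlap between lens 1 to 4 and control.

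In lens libraries 12 to 14 against control, 0 of the 59 genes passed limma and 0% of all genes did. The smallest adjusted p of the 59 was 0.938, and the exact rank-sum test, whose smallest p for 3 against 7 is 0.0167, called 0, with 5 at an unadjusted p under 0.05. At an unadjusted p under 0.05, 10 of the 59 (16.9%) were lower and 0 higher, against 5.19% of all genes in both directions. Of the 59 log2 fold changes 44 (74.6%) were below 0, against 52% of all genes, and the median was -0.05 against -0.0049. Under median-of-ratios, trimmed-mean and quantile scaling 41 were below 0, against 49.2%, 49.5% and 49.4% of all genes. At an unadjusted limma p under 0.05, the fit without lens 13 gave 2 lower and 0 higher. The fit without control 10 gave 10 lower and 1 higher, and library weights gave 12 lower and 1 higher. The shares of all genes at that limit in these fits are not given here.

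The 5 of smallest p in lens 12 to 14 were KCNJ3 (-0.26), KCND3 (-0.20), KCNH7 (-0.16), KCNB2 (-0.14) and KCNMA1 (-0.12), with limma adjusted p-values of 0.938 to 0.942. KCNJ3, a rectifier driven by G proteins, had 2.11, 1.73 and 2.33 CPM in lens 12 to 14 and 2.53 to 2.83 CPM in control, and 2.31, 2.74, 2.81 and 2.61 CPM in lens 1 to 4. KCNH7, of the ERG group, had 35.3, 35.0 and 35.6 CPM in lens 12 to 14 and 36.1 to 44.3 CPM in control. These 2 genes and KCNA3, a channel best known from T cells (3.55 ± 0.201 CPM in lens 12 to 14 and 4.20 ± 0.399 in control), lay wholly below control, which is 5.08% of the 59. Of all genes 0.927% lay wholly below and 0.727% wholly above.

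KCND3, the pore of an A-type current, had 25.8 ± 0.738 CPM in lens 12 to 14 and 29.7 ± 2.18 in control. KCNB2, a partner of the modifier subunits, had 270 ± 10.4 CPM in lens 12 to 14, 273 ± 18.7 in lens 1 to 4 and 298 ± 19.5 in control, with log2 fold changes of -0.14 and -0.12 in the lens sets. KCNMA1, the large-conductance calcium-activated channel, had 229, 226 and 206 CPM in lens 12 to 14, and 222 to 255 CPM with a median of 239 in control.

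**Figure D3:**
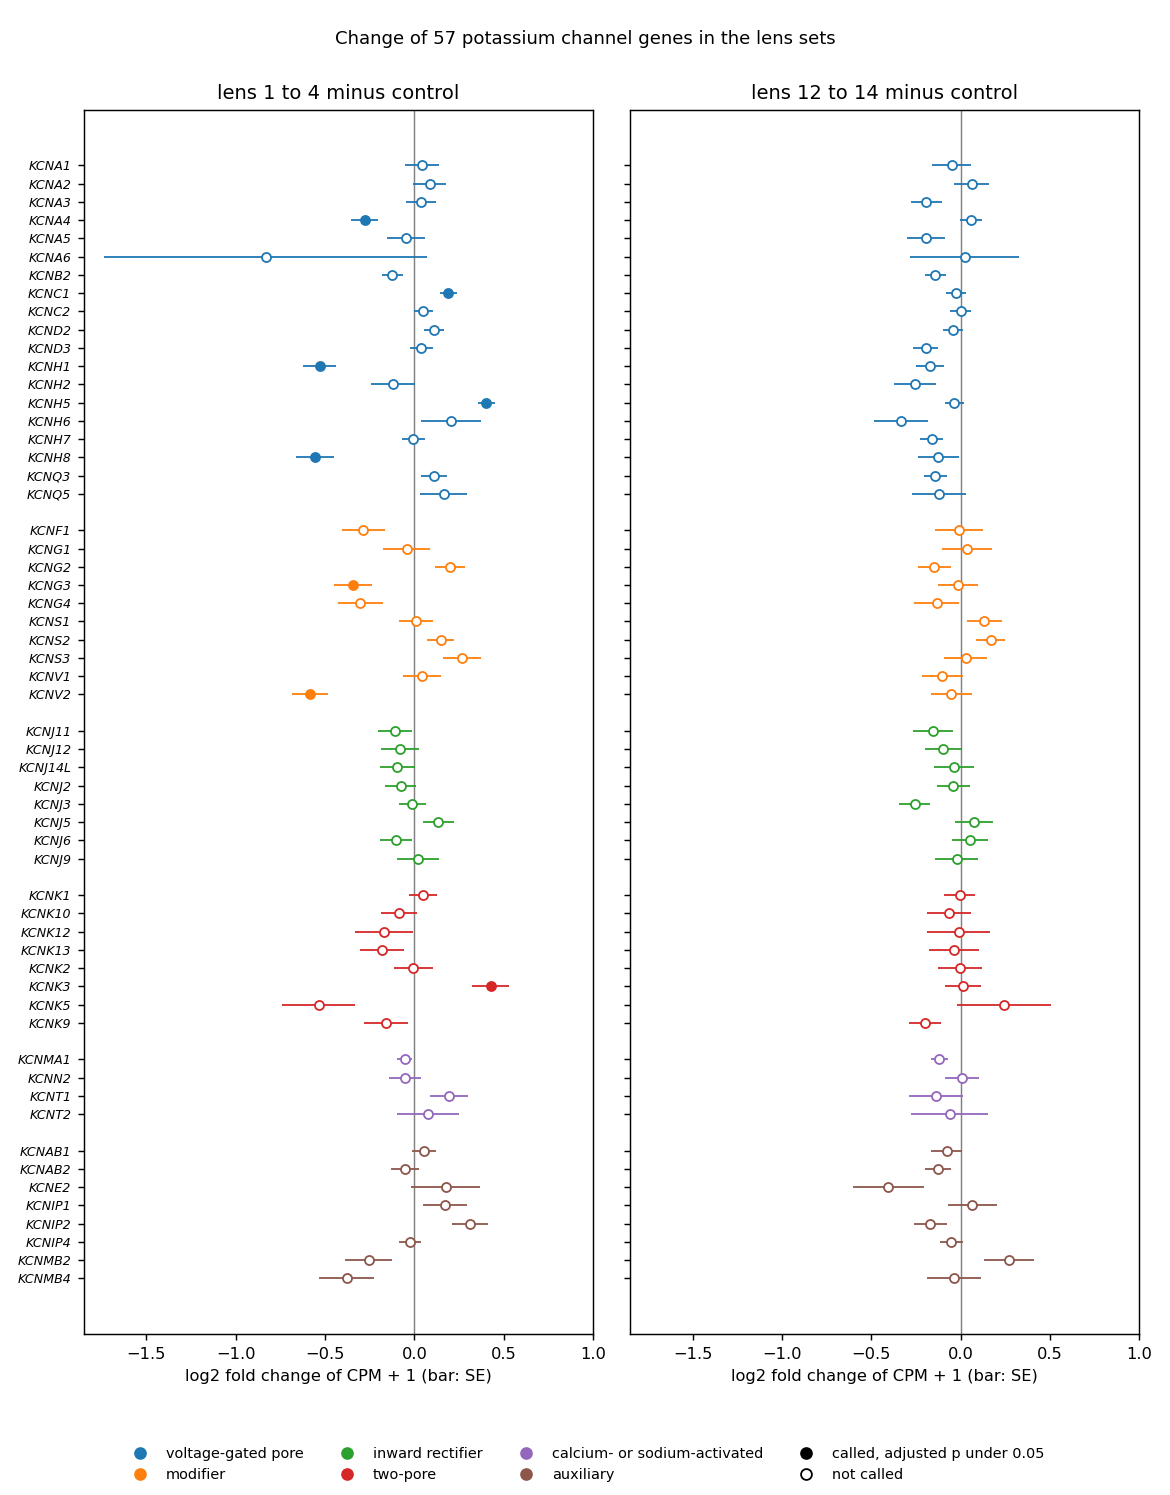
Log2 fold change of 57 of the 59 genes (rows, grouped and coloured by role) in lens libraries 1 to 4 (left) and lens libraries 12 to 14 (right) against the same 7 controls; points are limma estimates, bars are SE, and filled points passed. The 8 filled points are all on the left, and on the right 43 of the 57 estimates lie below 0.

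Tested directly, lens libraries 1 to 4 and lens libraries 12 to 14 differed in 5 of the 59 genes (8.47%), against 5.01% of all genes. Those higher in lens 1 to 4 (3.53% of all genes) included KCNH5, and KCNV2, KCNMB2 and KCNH8 were lower (1.47% of all genes). At an unadjusted p under 0.05 the count was 22 of 59, or 37.3%, against 24.7% of all genes. The sets did not overlap for 11 genes upward and 9 downward (33.9% in all), where 15.5% and 7.57% of all genes did not. KCNH8 had a difference of -0.43 (limma, adjusted p = 0.0423), and its call was lost without any 1 of lens 1, 2, 3, 12, 13 or 14, with adjusted p-values of 0.0824 to 0.122.

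KCNMB2, an auxiliary subunit that makes KCNMA1 channels inactivate, had 3.48, 4.05, 3.93 and 3.04 CPM in lens 1 to 4, 5.79, 5.32 and 5.80 CPM in lens 12 to 14, and 2.95 to 5.77 CPM with a median of 4.34 in control. The 2 lens sets lay apart on either side of the control median. Their log2 difference was -0.53 (SE 0.11, limma, adjusted p = 0.0290), while neither set passed against control (-0.26, adjusted p = 0.202, and 0.27, adjusted p = 0.961). The call was lost without lens 1 (adjusted p = 0.0640), 3 (0.0615), 12 (0.0870), 13 (0.0694) or 14 (0.122).

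By role, the 21 voltage-gated pore genes held 3 of the calls upward and 3 of those downward in lens 1 to 4, and 15 did not pass, while 9.4% of all genes were called higher and 4.05% lower. Their median log2 fold change was 0.04 in lens 1 to 4 and -0.13 in lens 12 to 14, where 17 of 21 were below 0, against 52% of all genes. Inside the KCNH family the 6 genes ranged from -0.56 for KCNH8 to 0.40 for KCNH5 in lens 1 to 4. KCNH2, KCNH6 and KCNH7, the ERG group that repolarizes cells with little current on the way up, had -0.12, 0.20 and -0.01 and did not pass (adjusted p = 0.541, 0.447 and 0.964).

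The 10 modifiers had 2 calls in lens 1 to 4, KCNV2 and KCNG3, both lower, and 8 did not pass, against 4.05% of all genes called lower and 13.4% called in all. Of the other KCNG genes, KCNG4, the one with the highest mean of its letter, had 14.2 ± 2.82 CPM in lens 1 to 4 and 17.6 ± 2.53 in control (-0.30, limma, adjusted p = 0.121). KCNF1 had 0.892 ± 0.155 and 1.32 ± 0.344 CPM in the same order (-0.29, adjusted p = 0.124). On the other side of 0, KCNS3 had 1.60 ± 0.237 CPM in lens 1 to 4 and 1.17 ± 0.256 in control (0.26, adjusted p = 0.110), and KCNS2 had 21.99 ± 2.72 and 19.7 ± 1.19 CPM (0.15, adjusted p = 0.202).

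The 8 inward rectifiers had 0 calls by limma in lens 1 to 4 and also 0 at an unadjusted p under 0.05, against 13.4% and 30.2% of all genes, with log2 fold changes from -0.11 to 0.13. Over 8 genes such shares correspond to few calls. KCNJ10 was not among the 14 listed KCNJ symbols, and KCNJ16, with a mean of 0.523 CPM, fell under the limit. Which of the 8 genes act in Müller glia was not tested. KCNJ12, the one with the highest mean, had 27.2 ± 3.403 CPM in lens 1 to 4 and 28.8 ± 3.92 in control (-0.08, adjusted p = 0.642). KCNJ11, the pore of channels closed by ATP, had 2.94 ± 0.126 and 3.27 ± 0.476 CPM in the same order (-0.11, adjusted p = 0.478). The KCNJ5 gene shares its span with ARHGAP32 on the opposite strand (20.8 CPM) and KCNJ9 with MPP3 (34.9 CPM). Outside the inward rectifiers, KCNT2 overlaps LOC101750820 (9.20 CPM) and KCNIP4 overlaps PACRGL (12.1 CPM) in the same way. The library kit keeps strand, but no source used here states that counting did, so reads of such pairs may not be separated.

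Of the 8 leak channels, KCNK3 was called in lens 1 to 4 and 7 were not, against 13.4% of all genes called. KCNK9, a relative of KCNK3 that acid also closes, had 41.0 ± 9.98 CPM in lens 1 to 4 and 45.2 ± 5.06 in control (-0.16, limma, adjusted p = 0.403). KCNK5, a leak channel opened by alkaline fluid, had 1.62, 2.32, 1.73 and 1.89 CPM in lens 1 to 4, 4.53, 2.35 and 5.51 CPM in lens 12 to 14, and 1.98 to 6.92 CPM with a median of 2.98 in control. Its log2 fold change of -0.54 in lens 1 to 4 did not pass (adjusted p = 0.0914), nor did the difference of -0.78 between the lens sets (adjusted p = 0.0580).

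The 4 channels opened by calcium or sodium had 0 calls by limma and 0 at an unadjusted p under 0.05 in lens 1 to 4, where all genes gave 13.4% and 30.2%. KCNMA1 had 230 ± 1.90 CPM there and 239 ± 9.63 in control (-0.05, adjusted p = 0.404), and KCNN2, a small-conductance calcium-activated channel, had 8.58 ± 0.735 and 8.96 ± 1.06 CPM (-0.05, adjusted p = 0.736). KCNT1, opened by sodium, had 2.34 ± 0.228 and 1.94 ± 0.370 CPM (0.19, adjusted p = 0.244), and its relative KCNT2 had 7.69 ± 0.925 and 7.43 ± 1.84 CPM (0.08, adjusted p = 0.801).

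The 8 auxiliary genes also had 0 calls by limma in lens 1 to 4, with 2 at an unadjusted p under 0.05, beside the same shares of all genes. KCNIP2, which binds KCND channels, had 3.69 ± 0.735 CPM in lens 1 to 4, 2.35 ± 0.299 in lens 12 to 14 and 2.76 ± 0.260 in control, and its log2 fold change of 0.31 in lens 1 to 4 had an adjusted p of 0.0581. It overlaps C6H10orf76 on the same strand (17.9 CPM). KCNMB4, an auxiliary subunit of KCNMA1, had 2.35 ± 0.587 CPM in lens 1 to 4 and 3.37 ± 0.830 in control (-0.38, adjusted p = 0.113). KCNE2, a single-pass subunit of several pores, had 2.27 ± 0.747 and 1.93 ± 0.764 CPM (0.17, adjusted p = 0.578). KCNIP4, the KCNIP gene with the highest mean, had 18.9 ± 1.17 and 19.2 ± 1.11 CPM (-0.02, adjusted p = 0.829).

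KCNA6, a delayed rectifier, varied most of the 59 genes from library to library, with no call in any of the 5 comparisons. It had 110, 107, 0.293 and 44.6 CPM in lens libraries 1 to 4, 69.6, 61.8 and 31.3 CPM in lens 12 to 14, and 32.8 to 79.0 CPM with a median of 58.9 in control. Lens 3 held the equivalent of 10 reads of this gene, and the next lowest of the lens libraries, lens 14, held 1289. The SD of its log2 values over the 14 libraries was 1.58, which 27 of 11005 genes (0.245%) exceeded, and the medians were 0.17 for the 59 genes and 0.16 for all genes. Without lens 3 the SD was 0.61.

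The sign of the KCNA6 difference depended on lens 3 and on the scale. In lens 1 to 4 it averaged 65.3 ± 52.7 CPM (SD, n = 4) against 53.6 ± 19.3 in control (n = 7), whereas the log2 fold change was -0.83 (SE 0.90, limma, adjusted p = 0.573). Without lens 3, lens 1 to 4 averaged 86.9 ± 36.7 CPM (n = 3). KCNA6 lies on chromosome 1, 73737992 to 73755701 on the plus strand, and KCNA1 (from 73876048) and KCNA5 (from 73964976) follow it. Lens 3 had 6.97 CPM of KCNA1 and 8.47 CPM of KCNA5, both inside the range of the other libraries (5.36 to 7.85 and 5.85 to 9.03 CPM).

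**Figure D4:**
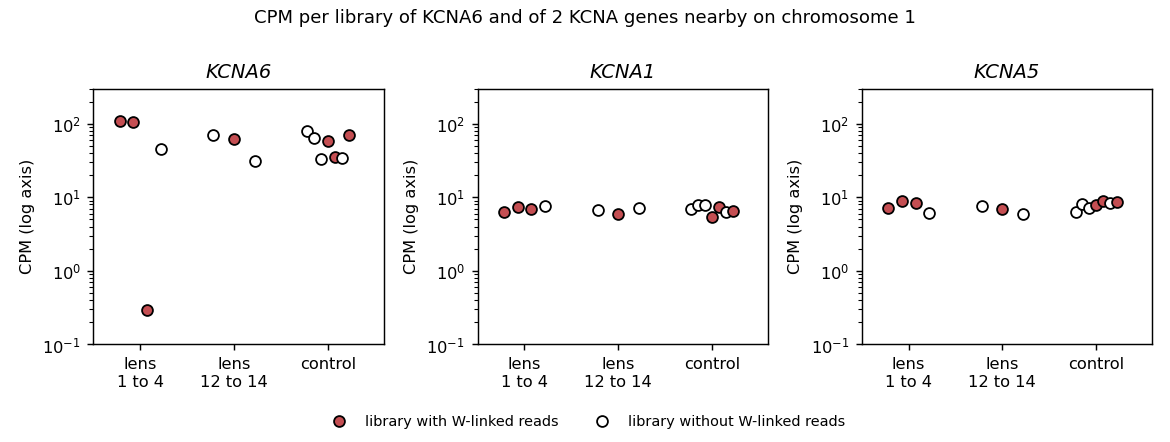
CPM per library of KCNA6, KCNA1 and KCNA5 (y axis, CPM, log axis, the same in each panel) by library set (x axis); filled points hold W-linked reads and open points do not. For KCNA6, lens 3 sits at 0.293 CPM and every other library at 31.3 CPM or more, while KCNA1 and KCNA5 stay between 5.36 and 9.03 CPM in all 14 libraries.

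Of the 59 genes, KCNV2 and KCNN2 lie on chromosome Z, of which hens carry 1 copy and cocks a pair. KCNN2 had 8.82 ± 0.880 CPM in libraries with W-linked reads and 8.89 ± 0.883 in libraries without (SD, n = 7 each), a log2 difference of -0.01 (limma, adjusted p = 0.983). For the 552 tested genes of chromosome Z the median was -0.40, and 364 of them were called lower and 14 higher. KCNV2, at -0.36 in the same fit with lens as a covariate, lay near that median, with 309 of the 552 (56.0%) more negative. That fit does not separate the lens sets. KCNV2 was lowest in lens 1 to 4, a set of 3 libraries with W-linked reads and 1 without. Over the alternative settings its difference ran from -0.42 to -0.27, and its place among the Z genes there was not examined. KCNN2 lay in the upper tail, with 498 (90.2%) more negative. Of the 57 genes elsewhere 0 were called by limma, with 4 higher and 2 lower at an unadjusted p under 0.05 (10.5%). Of all 10426 tested genes off Z and W, 107 were called higher and 4 lower, with 10.8% at an unadjusted p under 0.05. The directions depended on scaling. In the main limma fit, 4 of the 59 genes were higher and 3 lower at an unadjusted p under 0.05. Median-of-ratios and quantile scaling each gave 1 higher and 4 lower, and trimmed-mean scaling gave 0 higher and 5 lower. Of all genes, 31.7% were below 0 in the main fit and 47%, 46% and 49.5% under these scalings, in that order. The exact rank-sum test, which held no lens covariate, called 0 of the 59.

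**Figure D5:**
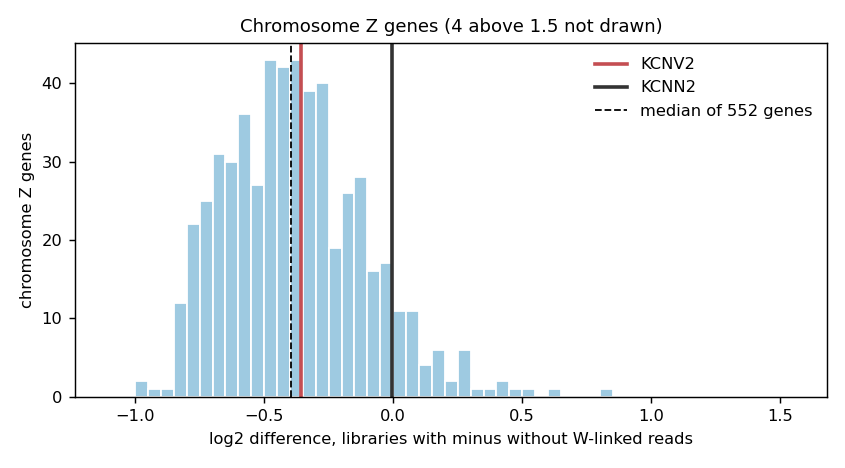
Number of tested chromosome Z genes (y axis) by log2 difference, libraries with W-linked reads minus libraries without (x axis, limma estimate, bins of 0.05); vertical lines mark KCNV2, KCNN2 and the median of the 552 genes. KCNV2, at -0.36, stands beside the median of -0.40, and KCNN2 stands at -0.01. The fit held lens as a covariate and does not separate the lens sets.

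Of 25 genes for partners of potassium channels (anchors, auxiliary proteins and regulators), 18 were tested. In lens 1 to 4 limma called 2 of them higher and 0 lower, against 9.4% and 4.05% of all genes. CNTNAP2, which gathers KCNA channels along axons, had a log2 fold change of 0.16 (adjusted p = 0.0352), and DAG1, the matrix receptor whose complex anchors channels at the end feet of Müller glia, one of 0.44 (adjusted p = 0.0488). Of 31 genes that move potassium by other routes (pumps, cotransporters, cation channels), 21 were tested, with 3 higher and 0 lower, beside the same shares. By limma, the 3 were the pump subunit ATP1B3 (0.16, adjusted p = 0.0325), the sodium, calcium and potassium exchanger SLC24A3 (0.24, adjusted p = 0.0250) and TMEM38A, an intracellular cation channel (0.45, adjusted p = 0.00543). The medians were 0.02 and -0.01, against 0.04 for all genes. Against control, 0 genes of either list passed limma in lens 12 to 14 or over all 7 lens libraries, and 0% of all genes did. At an unadjusted p under 0.05 there were 2 partners and 4 transport genes in lens 12 to 14, against 5.19% of all genes. Over all 7 lens libraries there were 2 and 5, against 14.7% of all genes.

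Between lens 1 to 4 and lens 12 to 14, DAG1 (0.46), the pump subunit ATP1B1 (0.25) and the cone channel subunit CNGA3 (0.50) were higher (3.53% of all genes) and 0 were lower (1.47% of all genes). In libraries with W-linked reads against those without, limma called ABCC9 (0.40), a partner of ATP-sensitive channels, and the water channel AQP4 (0.31) higher (1.34% of all genes). The 5 called lower there (3.34% of all genes) all lie on chromosome Z, among them the ubiquitin ligase NEDD4L (-0.39), the cotransporter SLC12A2 (-0.34), the cation channel TMEM38B (-0.47) and the lysosomal channel TMEM175 (-0.72). Of the 552 tested genes of chromosome Z, 364 were called lower.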

How the data were processed

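Total RNA of 14 chicken retinas (7 lens, 7 control) was sequenced from stranded libraries depleted of ribosomal RNA, per the labels' protocols. The tools STAR and Partek and the build GRCg6a are named in the submitters' processing notes, without role or version. The table deposited by the authors was read as CPM from its values: after subtraction of a constant of 0.0001, low values of each library (up to 20 steps) were whole multiples of 1 step in 93.6% to 95.1% of cases (tolerance 0.05 steps), too few to treat them as counts. The step gave read totals of 27.7 to 49.3 M, of which 8.65 to 15.3 M fell on listed genes, with 1 read worth 0.0203 to 0.0361 CPM. Columns summed to 29.9% to 31.9% of 1000000. Within library sets, all 30 pairs of replicates differed by more than sampling noise (chi-square per degree of freedom 6.50 to 18.7).

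Values were analysed as log2(CPM + 1) for the 11005 genes whose mean reached 1 CPM. limma 3.58.1 in R 4.3.3 (trended variance, two-sided, Benjamini-Hochberg over all genes, adjusted p under 0.05) was used for 5 comparisons: lens against control, each lens number set against control, the lens sets against each other, and libraries with against without W-linked reads (summed W genes over or under 100 CPM), with lens as a covariate. Each fit held only the libraries compared and was checked on simulated data. Chromosomes were named through RefSeq gene names (GRCg7b, 81 of the 84 KCN symbols matched); coordinates come from the authors' table and its build, GRCg6a.

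Genes named with values were KCNV2, KCNH1 and KCNH5, each gene called in any comparison and the 5 of smallest p in each. Per subfamily letter, the gene of highest mean and of largest lens change was also named. The others named (KCNA1, KCNA3, KCNH2, KCNH6, KCNIP2, KCNJ5, KCNJ9, KCNJ13, KCNJ16, KCNK5, KCNK15, KCNQ3, KCNV1) were chosen after their values were seen. Some genes that enter the counts are not reported here by name. The members, the lists and the split of the lens libraries by title number were chosen with earlier results of these data known. Alternatives covered the pseudocount, filter, scaling, variance, library weights, rank-sum tests, eye letter, W-linked reads, library sets as covariate, a shared fit and each library left out.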

Additional observations from a re-analysis of the deposited data

Results flagged for a closer look

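In 4 of 90 groups of 4 to 7 libraries examined, 1 library lay far from the others of its group by Dixon's criterion, while chance alone marks about 5% of groups. KCNK3 in lens libraries 1 to 4 had 7.62 CPM in lens 3 and 10.4 to 10.6 CPM in the other 3. KCNMA1 in the 7 lens libraries had 206 CPM in lens 14 and 226 to 232 CPM in the other 6. In the 7 controls, KCNIP1, a subunit that binds KCND channels, had 5.98 CPM in control 22 and 3.42 to 4.07 CPM in the other 6, and KCNT2 had 3.62 CPM in control 17 and 7.20 to 9.39 CPM in the other 6. The spread of these genes was not traced further.

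Lens libraries 1 to 4 and lens libraries 12 to 14 differed from each other by the direct limma test for KCNH5, KCNH8, KCNV2 and KCNMB2, among others. No controls are matched to either set, so whether the effect of the lens differed between them was not tested. The log2 differences, lens 1 to 4 minus lens 12 to 14, were 0.44 for KCNH5, -0.43 for KCNH8, -0.53 for KCNV2 and -0.53 for KCNMB2. The labels separate the lens sets by title number alone, and W-linked reads were present in 3 of 4 libraries of the first set and in 1 of 3 of the second.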

How the results depend on the processing

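No paired analysis was possible because the title numbers are not shared between lens and control libraries. Counts of called genes were 0 in every alternative for all lens libraries and for lens 12 to 14 against control. For lens 1 to 4 against control (9 called) the exact rank-sum test called 0, its smallest p being 0.00606, and other settings gave up to 10, with 6 to 11 when 1 library was left out. KCNH5, KCNV2, KCNH1 and KCNH8 kept their calls in 24 of 25 settings, KCNK3 in 21, KCNA4 in 20, KCNC1 in 19 and KCNG3 in 12. Between the lens sets (5 called) the count was 2 without a filter, 3 with the eye letter as covariate, 0 by rank-sum (smallest p 0.0571), 9 in a fit shared by all libraries, and 11 with library weights or with W-linked reads as covariate; leaving out 1 library gave 0 to 7, with 0 without lens 14 and 1 without lens 1, 3 or 12. For libraries with against without W-linked reads (1 called) the count was 0 without a filter and by rank-sum, which held no lens covariate. It was also 0 with genes of Z and W left out, which removes KCNV2, and 0 to 1 when 1 library was left out. KCNV2 in lens 12 to 14 against control ranged from -0.098 to 0.027 when 1 library was left out, above 0 only without lens 13. The causes of these shifts were not tested. The shares of all genes called in each alternative setting are not given here. Whether a setting called more of all genes thus cannot be read from these counts. Depth limits the lowest genes, since 1 read is worth up to 0.0361 CPM.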
